A study of Mus musculus with 18 samples.

Results

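The guanylate-binding proteins (GBPs) and the immunity-related GTPases (IRGs) were followed through cold storage and reperfusion of mouse donor hearts as 10 genes, namely Gbp2, Gbp3, Gbp5, Gbp6, Gbp7, Gbp9, Irgm1, Irgm2, Igtp, and Iigp1. They were chosen by name from 34989 genes, and the count of a gene was the sum over all of its transcripts. RNA was sequenced from the left ventricle (LV) and the right ventricle (RV) of wild type C57B/L6 mice, 12 weeks old by the labels, and a different age is given in the methods of the study. All hearts, controls included, were flushed with HTK, a cardioplegic preservation solution, held in ice-cold HTK for 0, 4, or 8 h, and then perfused ex vivo with Krebs buffer for 1 h, so that the 0 h group was also reperfused. There were 3 libraries for each ventricle and storage time, 18 in all, and mice of both sexes were used while the labels give no sex.

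GBPs are large GTPases of the dynamin superfamily that assemble on the membranes of intracellular pathogens and of the vacuoles around them, and GBPs of the mouse promote caspase-11 signalling. IRGs are smaller GTPases, of which Iigp1 is an effector that is loaded onto such vacuoles, whereas Irgm1, Irgm2, and Igtp (Irgm3) are regulators that keep the effectors inactive on the cell's own membranes. Both families are induced by interferons, with type II interferon acting mainly at GAS elements of their promoters and type I interferon at ISRE elements, which are bound by a complex that holds IRF9.

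By the GENCODE M21 annotation of GRCm38, the genes lay in clusters of close paralogs. Gbp5 (chr3:142493978-142522344), Gbp7 (chr3:142530342-142550149), Gbp3 (chr3:142560026-142573209), and Gbp2 (chr3:142620602-142638008) followed each other on chromosome 3. Gbp9 (chr5:105077630-105139539) and Gbp6 (chr5:105270702-105293698) lay on the minus strand of chromosome 5, where Gbp9 overlapped Gbp8 and Gbp4, and Gbp6 overlapped Gm43302. On chromosome 11, Igtp (chr11:58199556-58207591) lay within the span of Irgm2 (chr11:58199618-58222782) but for its first bases, and Irgm1 was at chr11:48861968-48871683. Gbp7 overlapped the pseudogene Gm43802. All overlaps were on the same strand, and reads that fit several paralogs had been divided between them, so that the counts of single members are less certain than their depth implies.

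Promoter windows of 300 bases, 250 before and 50 after a transcription start, were found in RefSeq (GRCm38.p6) for 7 members, Gbp2, Gbp3, Gbp5, Gbp7, Irgm1, Irgm2, and Igtp. They were searched for the ISRE core GAAANNGAA (TTCNNTTTC on the other strand) and for the GAS letters TTCNNNGAA, which read alike on both strands. All 7 genes held an ISRE core, against 9.76% of the 27025 genes with a window, and Gbp5, Gbp7, Irgm2, and Igtp also held GAS letters, against 9.55%. The stretches around the ISRE core nearest to the start are printed because all 7 members with a window held such a core. Gbp6, Gbp9, and Iigp1 had no window and were not searched. Capitals mark ISRE cores and GAS letters that lie whole within the stretch printed, positions count back from the start at -1, and 30 bases are given where the window touches an annotated exon or the core lies far from the start. The starts are those of RefSeq and differ from the GENCODE spans above. The stretches of Gbp5 and Irgm2 lie inside those spans, and the stretches of Gbp2 and Irgm1 overlap annotated exons. For Gbp7 and Irgm2, the bases after the RefSeq start were not found in a GENCODE transcript of the gene.
Gbp2 (chr3:142620594-142620623, plus strand, -69 to -40): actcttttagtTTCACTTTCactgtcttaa
Gbp3 (chr3:142559995-142560024, plus strand, -49 to -20): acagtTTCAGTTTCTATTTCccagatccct
Gbp5 (chr3:142496759-142496788, plus strand, -175 to -146): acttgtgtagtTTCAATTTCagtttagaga
Gbp7 (chr3:142530236-142530335, plus strand, -100 to -1): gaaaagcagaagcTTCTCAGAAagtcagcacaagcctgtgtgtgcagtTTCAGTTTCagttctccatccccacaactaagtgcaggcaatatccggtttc
Irgm1 (chr11:48871426-48871455, minus strand, -35 to -6): ttcaaGAAATAGAAACCGAAactgattctc
Irgm2 (chr11:58214877-58214976, plus strand, -100 to -1): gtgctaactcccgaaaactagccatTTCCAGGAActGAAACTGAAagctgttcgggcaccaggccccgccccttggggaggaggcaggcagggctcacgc
Igtp (chr11:58199456-58199555, plus strand, -100 to -1): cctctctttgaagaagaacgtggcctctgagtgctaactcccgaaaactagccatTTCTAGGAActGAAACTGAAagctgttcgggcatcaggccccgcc

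The cores of the 4 GBP genes were read on the minus strand of the gene and those of the 3 IRG genes on the plus strand. In Gbp3 and Irgm1 there were overlapping pairs of cores, which form the longer run of capitals. The stretches of Igtp and Irgm2 matched at 68 of 70 bases when shifted by 30 bases, with GAS letters just ahead of the ISRE core in both. At this shift, picked for the most matches, 134 of the 220 bases compared before the starts matched (60.9%). The GAS letters of Gbp5, from -245 and from -52, and the first of Gbp7, from -106, lay outside or at the edge of the stretches printed. In Gbp2, Gbp3, and Irgm1 the GAS letters were not in the window searched. A second RefSeq window of Gbp3 held neither motif. These are matches of letters and not measured sites of binding.

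**Figure D1:**
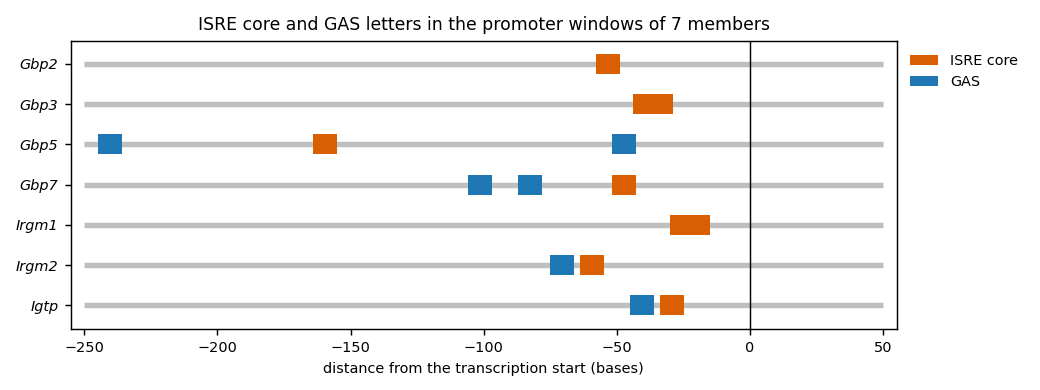
Positions of ISRE cores (orange) and GAS letters (blue) in the promoter windows of 7 members, drawn to scale as distance in bases from the RefSeq transcription start (vertical line at 0), with the window of each gene in grey. The ISRE cores of 6 genes lie within 64 bases of the start and that of Gbp5 begins 164 bases before it.

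Each library held between 22552581 and 46236771 estimated counts, and mitochondrial transcripts took between 22.72% and 34.42% of those assigned to genes, with the highest shares at 8 h. Ventricular tissue was checked by cardiomyocyte markers, which summed to between 24930 and 57590 CPM (counts scaled to a common library size with TMM factors). They were lower at 8 h, with 35160 to 40240 CPM in LV and 24930 to 47180 CPM in RV, than at 0 h, with 46300 to 56600 CPM in LV and 49570 to 57590 CPM in RV, without overlap, and the part of this in the results was not tested. The lowest sum was that of RV library 3 at 8 h. Markers of T and NK cells summed to at most 0.741 CPM over 6 genes and those of B cells to at most 1.29 CPM over 3 genes. Neutrophil markers summed to between 0.982 and 2.45 CPM at 0 h and between 9.66 and 16.4 CPM at 8 h, with Ly6g at 0 in 17 of the 18 libraries. Macrophage markers summed to between 101.8 and 307.7 CPM. The atrial markers varied from 7.11 to 252.4 CPM between libraries. In bulk tissue, a change in the number of cells of a type and a change in RNA per cell cannot be told apart.

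The libraries numbered 3 at 4 h and 8 h of both ventricles stood apart from the other stored libraries in every member, before any test. Their CPM was between 4.25 and 10.8 times the mean of the libraries numbered 1 and 2 at 4 h, and between 3.21 and 7.71 times that mean at 8 h. At 0 h, the same ratio lay between 0.792 and 1.56. Over all genes with a mean of at least 1 CPM the median ratio was between 0.905 and 1.03 in the 6 groups, and a ratio as high as that of the lowest member was reached by between 1.28% and 3.20% of genes in the 4 stored groups. The same 4 libraries also had Ddx3y, a gene of the Y chromosome, at between 1.47 and 2.44 CPM, whereas 12 libraries had between 62.1 and 115.2 CPM. The 0 h libraries numbered 2 had low Ddx3y as well, at 1.69 CPM in LV and 1.86 CPM in RV, and there the members were not high (Gbp2 at 26.2 and 20.8 CPM). The summed macrophage markers of the 4 libraries lay between 101.8 and 141.4 CPM, below those of the other stored libraries, which lay between 149.0 and 307.7 CPM. The part of these differences in the results was not tested, and the counts of members called are given with and without the stored libraries numbered 3, a choice made after the data had been seen.

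**Figure D2:**
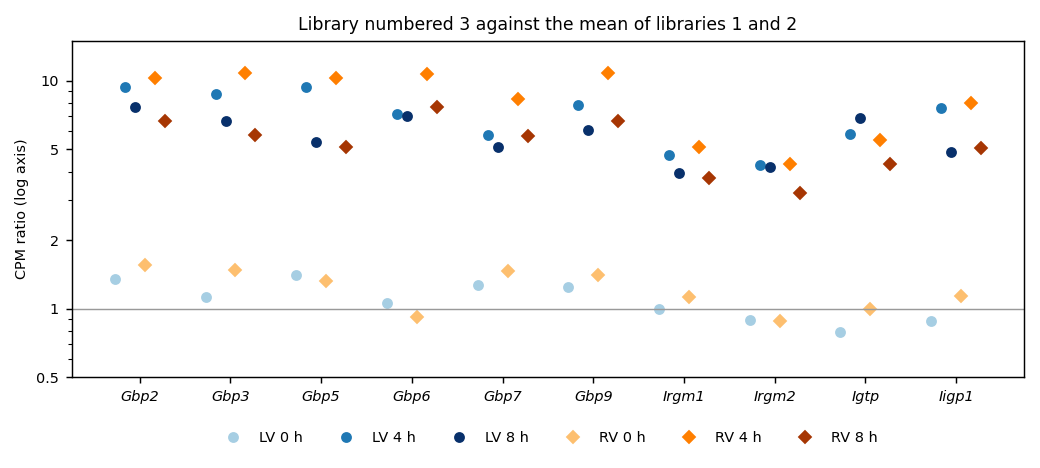
Ratio (log axis) of the CPM of the library numbered 3 to the mean CPM of libraries 1 and 2, for each member and group, with LV as circles and RV as diamonds. All ratios of the stored groups lie between 3.21 and 10.8, and those at 0 h lie between 0.792 and 1.56.

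The ratio had higher medians in the GBP genes than in the IRG genes, with overlap between single genes in LV. At 4 h, its median over the GBP genes was 8.30 in LV and 10.5 in RV, and its median over the 4 IRG genes was 5.30 and 5.33. At 8 h the medians were 6.39 and 6.21 for the GBP genes against 4.55 and 4.03 for the IRG genes. Irgm2 had the lowest ratio in 3 of the 4 stored groups and Irgm1 in LV at 8 h. These ratios rest on 1 library a group and are given as a description.

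Levels between genes were compared per transcript length, as TPM summed over the transcripts of a gene. At 0 h, Iigp1 was the highest member in all 6 libraries, with 22.5 ± 7.96 TPM in LV and 23.0 ± 6.01 TPM in RV (SD, n = 3), and Gbp7 was the lowest in all 18 libraries, with 4.23 ± 1.27 and 4.05 ± 0.719 TPM at 0 h. In RV at 0 h, Iigp1 lay above Gbp2 (11.7 ± 1.77 TPM) and Gbp5 (5.62 ± 0.825 TPM) above Gbp7 without overlap of the libraries, while all other neighbours in the order overlapped. At 8 h, Gbp2 was the highest member in all 6 libraries, with 202.7 ± 233.3 TPM in LV and 332.1 ± 363.4 TPM in RV, and every pair of neighbours overlapped. The sum of the 10 genes was between 80.8 and 135.7 TPM at 0 h, between 193.9 and 1683 TPM at 4 h, and between 366.2 and 3055 TPM at 8 h. GBP genes made up between 45.6% and 57.2% of that sum at 0 h and between 54.4% and 67.5% at 8 h.

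The transcripts behind these sums differed between the members. Gbp2-201, a coding transcript, held 99.9% of the TPM of Gbp2, and Iigp1-202 held 94.9% of that of Iigp1, Igtp-201 93.1% of that of Igtp, Gbp7-201 84.3% of that of Gbp7, and Irgm2-202 81.7% of that of Irgm2. These shares are of the mean TPM over 18 libraries, in which the high libraries weigh most. In Gbp3, Gbp3-202 held 60.1% (24.7% to 69.4% in single libraries), and in Irgm1, Irgm1-201 held 60.3% (34.4% to 69.0%). In Gbp5, the coding Gbp5-201 held 54.7% beside 42.6% for Gbp5-202 (35.4% to 53.8%), which is annotated as a target of nonsense-mediated decay. In Gbp6 the transcript with the highest mean TPM was Gbp6-203 (44.4%, 37.4% to 59.1% in single libraries), also annotated for nonsense-mediated decay, beside the coding Gbp6-201 (42.7%, 32.0% to 51.9%). In Gbp9, the coding Gbp9-201 held 43.8% (29.5% to 59.7%) and the retained intron transcript Gbp9-203 held 41.3% (22.6% to 60.5%). The ranges of the leading transcripts overlapped in Gbp3, Gbp5, Gbp6, Gbp9, and Irgm1, and their order is therefore given as a description. A gene's count is therefore not in every case a count of coding RNA.

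After 8 h of cold storage, the GBP and IRG genes were higher than at 0 h in both ventricles. In LV, 8 of the 10 rose (adjusted p under 0.1 from the edgeR quasi-likelihood test over all genes, and a fold change over 1.5), where 5.46% of all 14564 genes tested were called higher. All 10 rose in the right ventricle, against 13.0% of 14622 genes. The median log2 fold change of the members was 3.35 in LV and 3.99 in RV, beside medians of -0.02 and -0.07 for all genes. All 10 members passed the filter on low counts in every comparison, and in both ventricles all 3 libraries at 8 h lay above all 3 at 0 h for all 10 members, a pattern that 15.5% of genes in LV and 18.5% in RV also showed.

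With the stored libraries numbered 3 left out, the changes and their standard errors were smaller, and all 10 members were called higher at 8 h in each ventricle. The median log2 fold change was then 1.92 in LV and 2.92 in RV, and 4.74% of LV genes and 10.9% of RV genes were called higher. The standard errors of the members fell from between 0.75 and 1.17 to between 0.20 and 0.31 in LV, and from between 0.70 and 1.23 to between 0.18 and 0.33 in RV. The libraries left out were picked after their high values in the members were seen, so the lower spread follows from that choice. Only libraries 1 and 2 remained in each stored group, and the calls of this fit, here and below, are no separate support.

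**Figure D3:**
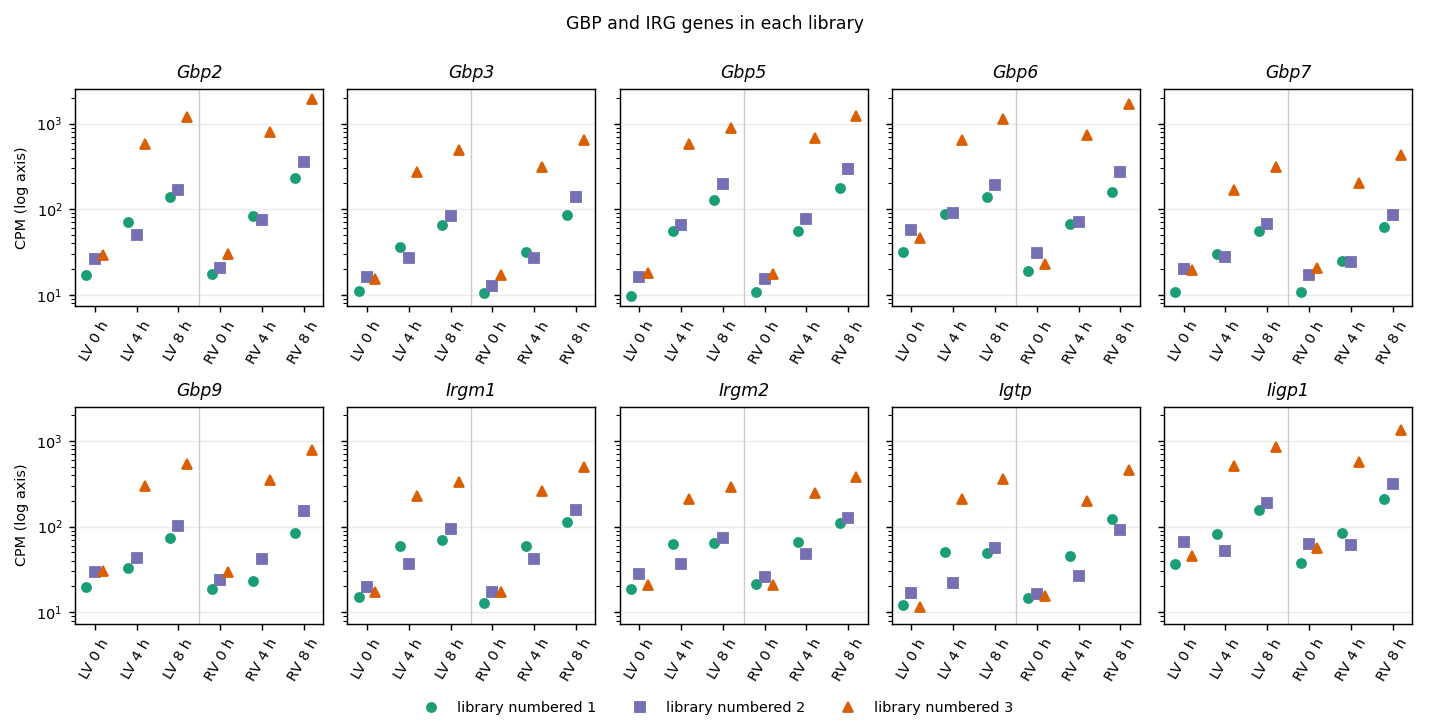
CPM (log axis) of each member in the 18 libraries, grouped by ventricle and storage time, with libraries 1, 2, and 3 as circles, squares, and triangles. The libraries numbered 3 lie highest in all stored groups, and libraries 1 and 2 at 8 h also lie above all 0 h libraries of their ventricle.

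Gbp2, a GBP that carries a prenyl anchor, had 17.0, 26.2, and 29.2 CPM in the 3 LV libraries at 0 h, 71.5, 49.9, and 573.5 CPM at 4 h, and 137.7, 169.4, and 1181 CPM at 8 h. In RV it had 17.6, 20.8, and 29.9 CPM at 0 h, 83.1, 74.2, and 805.7 CPM at 4 h, and 229.5, 354.6, and 1942 CPM at 8 h. In both ventricles no stored library reached down to the 0 h range, and the third library of each stored group was far above the others. The log2 fold change at 8 h was 4.37 in LV (SE 1.17, adjusted p = 0.0755) and 5.26 in RV (SE 1.21, adjusted p = 0.0216). It was 2.66 (SE 0.24, adjusted p = 0.000666) and 3.67 (SE 0.27, adjusted p = 0.000134) when the stored libraries numbered 3 were left out.

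Gbp5, which is also prenylated and is known for promoting inflammasome activation, had the largest log2 fold change of the members in both ventricles. In LV it had 9.60, 15.9, and 18.04 CPM at 0 h, 56.4, 64.9, and 571.8 CPM at 4 h, and 129.7, 198.5, and 883.5 CPM at 8 h. In RV it had 10.9, 15.2, and 17.3 CPM at 0 h, 55.4, 76.6, and 680.8 CPM at 4 h, and 177.9, 295.5, and 1219 CPM at 8 h. Its libraries numbered 1 and 2 were thus already well above the 0 h range at 4 h. The log2 fold change at 8 h was 4.80 in LV (SE 1.11, adjusted p = 0.0514) and 5.33 in RV (SE 1.16, adjusted p = 0.0179), and 3.49 (SE 0.27) and 4.02 (SE 0.29) without the stored libraries numbered 3.

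Gbp3, the neighbour of Gbp2, rose by 3.93 in LV (SE 1.08, adjusted p = 0.0808) and 4.50 in RV (SE 1.14, adjusted p = 0.0328) on the log2 scale at 8 h. Its libraries ranged from 10.99 to 16.1 CPM at 0 h and from 65.1 to 494.5 CPM at 8 h in LV, and from 10.4 to 17.1 and from 86.2 to 650.4 CPM in RV. Gbp7, the fourth gene of this cluster, rose by 3.13 in LV (SE 0.89, adjusted p = 0.0890) and 3.63 in RV (SE 1.03, adjusted p = 0.0483). It ranged from 10.8 to 20.1 CPM at 0 h and from 56.0 to 315.2 CPM at 8 h in LV, and from 10.8 to 20.4 and from 61.8 to 426.3 CPM in RV. For both genes the 8 h libraries lay apart from the 0 h libraries.

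Gbp6, on chromosome 5, differed from the other members in its 0 h level, which was 31.2, 56.5, and 46.7 CPM in LV but 19.1, 30.4, and 22.9 CPM in RV. At 8 h it had 138.2, 189.9, and 1145 CPM in LV and 160.2, 274.5, and 1676 CPM in RV. The LV libraries were thus the higher ones at 0 h and the lower ones at 8 h, number by number. It rose by 3.46 in LV (SE 1.03, adjusted p = 0.0972) and 4.92 in RV (SE 1.23, adjusted p = 0.0309). Gbp9 ranged from 19.7 to 30.7 CPM at 0 h and from 74.5 to 538.6 CPM at 8 h in LV, with a log2 difference of 3.17 that did not pass the threshold (SE 1.00, adjusted p = 0.114). In RV Gbp9 rose by 3.87 (SE 1.16, adjusted p = 0.0570).

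Of the regulatory IRG genes, Irgm1 had 15.04, 19.9, and 17.4 CPM at 0 h, 58.7, 36.4, and 225.2 CPM at 4 h, and 70.8, 94.9, and 328.2 CPM at 8 h in LV. In RV it had 12.9, 17.4, and 17.1 CPM at 0 h, 58.7, 42.2, and 259.5 CPM at 4 h, and 111.9, 155.8, and 500.2 CPM at 8 h. Irgm1 kept clear of the 0 h range in all stored libraries and rose by 3.24 in LV (SE 0.78, adjusted p = 0.0567) and 4.06 in RV (SE 0.82, adjusted p = 0.0139) at 8 h. Irgm2 had the smallest change of the members with all libraries, but in RV not without the stored libraries numbered 3 (2.38, against 2.20 for Gbp7). The change was 2.67 in LV (SE 0.75, adjusted p = 0.0873) and 3.22 in RV (SE 0.70, adjusted p = 0.0183), from between 18.9 and 28.3 CPM at 0 h to between 64.3 and 291.7 CPM at 8 h in LV. Igtp rose by 3.54 in LV (SE 1.00, adjusted p = 0.0870) and 3.91 in RV (SE 0.87, adjusted p = 0.0193). Its LV libraries numbered 1 had 50.8 CPM at 4 h and 49.0 CPM at 8 h, the only same-numbered pair of any member in which 8 h was not the higher time.

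The effector Iigp1 (chr18:60376027-60392634, plus strand) had 37.1, 67.0, and 45.9 CPM at 0 h, 82.4, 51.9, and 511.6 CPM at 4 h, and 158.1, 188.3, and 846.3 CPM at 8 h in LV. In RV it had 37.3, 62.0, and 56.7 CPM at 0 h, 84.1, 60.3, and 574.6 CPM at 4 h, and 211.9, 311.9, and 1335 CPM at 8 h. Its second library at 4 h lay inside the 0 h range in both ventricles. At 8 h its log2 difference from 0 h was 2.998 in LV (SE 0.95, adjusted p = 0.114), which did not pass the threshold, and 3.62 in RV (SE 1.00, adjusted p = 0.0433), which did. It was called in LV as well, at 1.78 (SE 0.26, adjusted p = 0.00718), when the stored libraries numbered 3 were left out.

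**Figure D4:**
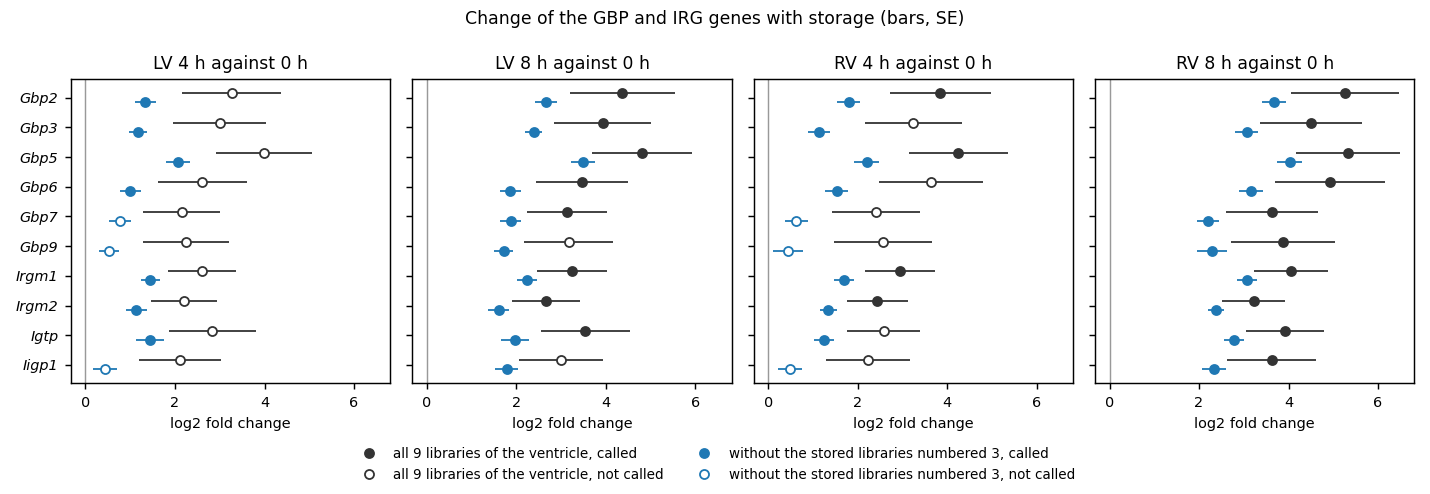
Log2 fold change of each member at 4 h and 8 h against 0 h (points) with the standard error (bars) in LV and RV, from all 9 libraries of a ventricle (black) and without the stored libraries numbered 3 (blue). Filled points were called. The blue values are smaller, and their bars are shorter, in all 4 panels.

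After 4 h of storage, 4 of the 10 members were called higher than at 0 h in RV and 0 in LV. In LV, 0 of 10 were called, against 2.40% of genes called higher, although all 10 had an unadjusted p under 0.05 in edgeR, as did 2271 of the 14564 genes. DESeq2 called 4 of 8, against 4.55% of genes called higher, and gave no p for Gbp2 and Iigp1 in LV. The log2 fold changes of the members lay between 2.11 for Iigp1 and 4.00 for Gbp5, with a median of 2.61 and adjusted p between 0.124 and 0.311. In RV, 4 members rose, Gbp2 (3.84, SE 1.13, adjusted p = 0.0797), Gbp5 (4.25, SE 1.10, adjusted p = 0.0547), Irgm1 (2.95, SE 0.78, adjusted p = 0.0588), and Irgm2 (2.43, SE 0.68, adjusted p = 0.0696), against 6.17% of genes called higher. The median in RV was 2.77. With the replicate number as a block, 8 members were called in RV, against 8.45% of genes. This block joins different hearts, since each heart had a single storage time. The RV libraries numbered 2 had Ddx3y at 1.86 CPM at 0 h and at 100.5 CPM at 4 h. The stored libraries lay above all 0 h libraries for 9 members in LV, all but Iigp1, and for 8 in RV, all but Gbp9 and Iigp1, a pattern shown by 12.9% and 15.1% of genes.

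When the stored libraries numbered 3 were left out, 7 members were called at 4 h in each ventricle, against 4.50% of genes in LV and 8.10% in RV. The members not called were Gbp7, Gbp9, and Iigp1 in both ventricles. Their log2 differences were 0.78, 0.53, and 0.43 in LV (adjusted p = 0.141, 0.267, and 0.476) and 0.63, 0.44, and 0.49 in RV (adjusted p = 0.172, 0.495, and 0.322). The largest change was again that of Gbp5, 2.07 in LV (SE 0.27, adjusted p = 0.00704) and 2.20 in RV (SE 0.27, adjusted p = 0.00306). The median over the members was 1.15 in LV and 1.30 in RV.

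The step from 4 h to 8 h was tested directly. No member was called in LV or RV by edgeR, with or without the replicate block, and 0.00% of genes were called higher in either ventricle without it. DESeq2 called 0 of the 8 members it tested in LV and 0 of 10 in RV, against 0.134% and 0.238% of genes called higher. At an unadjusted p under 0.05 there were 0 members in either ventricle without the block, and 1 in LV (Gbp7) and 8 in RV with it. The median log2 difference was 0.87 in LV and 1.27 in RV, with standard errors of single members between 0.65 and 1.06. Same-numbered libraries of 4 h and 8 h come from different hearts. Within them, the 8 h library was higher for 9 members in LV libraries numbered 1 and for all 10 members in the other 5 pairs. The share of all genes higher at 8 h in these pairs is not given, so the direction cannot tell the members from all genes. The median ratio of 8 h to 4 h over the members was 1.85, 2.59, and 1.74 in the LV pairs and 2.60, 3.77, and 2.16 in the RV pairs. With the replicate block and without the stored libraries numbered 3, LV had 5 members and RV all 10 called higher, against 0.545% and 1.08% of genes. The medians were 1.14 in LV and 1.73 in RV without any stored library numbered 3. Leaving out only 1 of them keeps its high partner at the other time, and the medians were then -0.55 and -0.14 without the 8 h library, and 2.58 and 3.13 without the 4 h library.

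Differences between the ventricles were tested in all 18 libraries. Without pairing, 0 members differed between LV and RV at 0 h, 4 h, or 8 h, where 0.159%, 0.0133%, and 0.0331% of genes were called in either direction. At an unadjusted p under 0.05 there were also 0 members at each time, DESeq2 called 0, and the standard errors lay between 0.73 and 1.11. The change from 0 h differed between the ventricles for 0 members at 4 h and 0 at 8 h in edgeR and in DESeq2, with 0 at an unadjusted p under 0.05, against 0.00% of genes in both. Same-numbered LV and RV libraries deviated together from their group means, as given in the methods, and were therefore also compared as pairs from 1 heart.

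In the paired fit, Gbp6 at 0 h was 0.88 higher in LV than in RV on the log2 scale (SE 0.13, adjusted p = 0.00534), and it was the only member called there, against 0.835% of genes called higher in LV. The difference was between 0.71 and 1.03 in all 3 pairs. The other members had log2 differences between -0.21 for Igtp and 0.15 for Irgm1 at that time. At 4 h no member was called, and the paired differences lay between -0.43 for Gbp2 (adjusted p = 0.0696, fold under 1.5) and 0.18 for Gbp6.

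At 8 h, all 10 members were lower in LV than in RV in all 3 pairs, with median log2 differences of -0.44, -0.70, and -0.50 in the pairs numbered 1, 2, and 3. The share of all genes lower in LV in all 3 pairs is not given, so this direction cannot tell the members from all genes. In the paired fit 5 members were called lower in LV, against 6.53% of genes called lower. These were Gbp2 (-0.84, SE 0.11, adjusted p = 0.000609), Igtp (-0.78, SE 0.16, adjusted p = 0.00543), Irgm1 (-0.66, SE 0.07, adjusted p = 0.000291), Irgm2 (-0.65, SE 0.10, adjusted p = 0.00112), and Iigp1 (-0.60, SE 0.10, adjusted p = 0.00178). The other 5 had an adjusted p of at most 0.0516 and missed the fold limit, with Gbp3 (-0.51, adjusted p = 0.00692) and Gbp5 (-0.50, adjusted p = 0.00255) the nearest to it. Of the 5 called, 4 were also called without the stored libraries numbered 3, namely Gbp2, Irgm1, Irgm2, and Igtp, against 7.35% of genes called lower. The lower cardiomyocyte marker sum of RV library 3 at 8 h, 24930 CPM against 38550 and 47180 CPM in the other RV libraries, lay beside these values. Macrophage marker sums were higher in RV in all 3 pairs, at 307.7, 209.2, and 141.4 CPM against 197.7, 151.5, and 118.5 CPM in LV. Marker sums of fibroblasts and of smooth muscle and pericytes were also higher in RV in all 3 pairs, and endothelial sums were not. The part of these sums in the differences was not tested.

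**Figure D5:**
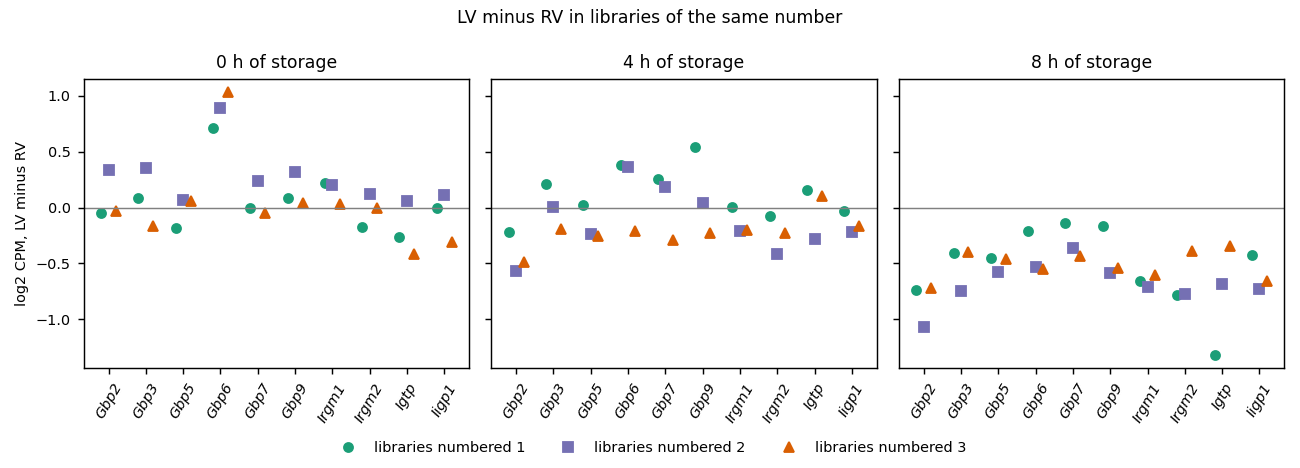
Difference in log2 CPM, LV minus RV, for each member in the same-numbered libraries at 0, 4, and 8 h (circles, squares, and triangles for pairs 1, 2, and 3). At 0 h Gbp6 is between 0.71 and 1.03 in all pairs, and at 8 h all 30 values lie below 0. The share of all genes with this direction at 8 h is not given.

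The change from 0 h to 8 h was smaller in LV than in RV for 5 members in the paired fit, against 4.72% of genes called lower. The difference in change was -1.31 for Gbp6 (SE 0.18, adjusted p = 0.00218), -0.92 for Gbp2 (SE 0.16, adjusted p = 0.00618), -0.81 for Irgm1 (SE 0.11, adjusted p = 0.00166), -0.63 for Irgm2 (SE 0.14, adjusted p = 0.0224), and -0.60 for Gbp3 (SE 0.16, adjusted p = 0.0469). For Gbp6 the 0 h difference of 0.88 makes up the greater part of it. These 5 and Igtp were called without the stored libraries numbered 3, against 5.62% of genes. In the comparison at 4 h no member was called in the paired fit, and Gbp6 had the largest difference in change, -0.70 (SE 0.18, adjusted p = 0.174).

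When the counts of each cluster with all its family members were added to 1 feature, the log2 fold change at 8 h was 4.19 for the GBP genes of chromosome 3, 3.50 for those of chromosome 5, and 3.37 for the IRG genes of chromosome 11 in LV. In RV it was 4.88, 4.50, and 4.01. Across the 18 cluster values for storage times, the sum and the median of the single members differed by at most 0.23. The summed GBP genes of chromosome 5 were not called in LV at 8 h (adjusted p = 0.102), although Gbp6 was.

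Across the 18 libraries, the log2 CPM of the 45 pairs of members had Pearson correlations between 0.938 (Gbp9 with Igtp) and 0.995 (Gbp2 with Gbp3), and between 0.789 and 0.99 over the 14 libraries left without the stored ones numbered 3. These values share the storage times and the libraries that stand apart, so they describe a common pattern only. The 10 other genes most like the mean of the members over the 18 libraries were Oas1a (0.9947), Irf7, Stat2, Oasl2, Phf11d, Gvin1, Slfn3, Usp18, Ddx58, and Parp14 (0.9928). Over the 14 libraries, the most alike of all other genes was Gvin1 (0.9869), a very large GTPase gene.

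Other GTPases of the same families were described from a list of 18 genes, of which 16 were tested. At 8 h, LV had 7 of them called higher and RV 12, against 5.46% and 13.0% of all genes called higher. In either ventricle 0 were lower, against 1.26% and 5.26% of all genes called lower. Their median log2 fold change was 3.69 in LV and 4.34 in RV. Gbp4 rose by 3.92 in LV (SE 1.17, adjusted p = 0.0979) and 4.46 in RV (SE 1.32, adjusted p = 0.0542). The IRG genes Ifi47 and Tgtp2 rose by 4.90 and 3.19 in LV and by 5.53 and 4.02 in RV. Irgq, an IRG relative with a divergent GTPase domain, did not pass the test, with 25.9 ± 4.25 CPM at 0 h and 30.3 ± 3.94 CPM at 8 h in LV, and 27.1 ± 5.99 and 36.2 ± 6.30 CPM in RV. At 4 h, 0 of the 16 were called higher in LV and 4 in RV, against 2.40% and 6.17% of genes. With the replicate block, 9 were called higher in RV, against 8.45% of genes. At 4 h 0 were called lower, against 0.398% and 3.91% of genes. When the stored libraries numbered 3 were left out, the counts at 8 h were 13 (LV) and 14 (RV), against 4.74% and 10.9% of genes. The medians were then 2.21 and 2.76.

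Of 3 interferon ligand genes only Ifnb1 had enough counts to be tested. Ifng was near 0, with at most 4 counts in a library and at most 0.147 CPM. The type I interferon gene Ifnb1 had 1.38, 0.135, and 0.0933 CPM at 0 h, 5.22, 3.21, and 1.18 CPM at 4 h, and 1.85, 1.36, and 0.718 CPM at 8 h in LV. In RV it had 0.994, 0.169, and 0.0326 CPM at 0 h, 4.82, 2.26, and 0.173 CPM at 4 h, and 2.71, 1.91, and 0.778 CPM at 8 h. In every group the library numbered 1 was the highest and that numbered 3 the lowest in Ifnb1, whereas the members were highest in the stored libraries numbered 3. Its log2 difference at 8 h was 1.20 in LV (SE 0.89, adjusted p = 0.433) and 2.13 in RV (SE 1.13, adjusted p = 0.223), which did not pass the threshold. In RV it was called higher at both 4 h and 8 h with the replicate block, and also when the stored libraries numbered 3 were left out (3.12, SE 0.80, and 2.47, SE 0.82). The lowest 0 h values of Ifnb1 are only a few counts, so these changes rest partly on values near the floor.

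The receptor genes changed little beside the members. Ifngr1, which encodes the ligand-binding chain of the interferon gamma receptor, rose by 0.81 in LV (SE 0.21, adjusted p = 0.0651) and 0.80 in RV (SE 0.27, adjusted p = 0.0792) at 8 h, and was not called in either ventricle without the stored libraries numbered 3. Ifngr2, the second chain, had 119.3 ± 15.1 CPM at 0 h and 112.0 ± 28.9 CPM at 8 h in LV and was not called. Of 4 receptor genes 2 were called higher at 8 h in each ventricle, Ifngr1 and Ifnar2, against 5.46% of all genes in LV and 13.0% in RV. Among the kinases, Jak2 rose by 1.82 in LV (SE 0.34, adjusted p = 0.0301) and 2.54 in RV (SE 0.37, adjusted p = 0.00412).

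Of 7 transcription factor genes, LV had 5 and RV 6 called higher at 8 h, against 5.46% and 13.0% of all genes. Irf9, the DNA-binding part of the ISRE complex, rose by 2.22 in LV (SE 0.61, adjusted p = 0.0800) and 2.87 in RV (SE 0.58, adjusted p = 0.0138). Irf1, which binds similar elements, rose by 1.73 in LV (SE 0.45, adjusted p = 0.0716) and 2.18 in RV (SE 0.60, adjusted p = 0.0430). Its 0 h libraries differed widely, at 214.9, 119.0, and 59.7 CPM in LV and 299.3, 98.6, and 61.8 CPM in RV, and it was not called without the stored libraries numbered 3. Nlrc5, a transactivator of MHC class I genes, had 5.43, 6.48, and 5.63 CPM at 0 h and 22.9, 17.9, and 251.9 CPM at 8 h in LV, a difference of 4.07 that was not called (SE 1.29, adjusted p = 0.115), and rose by 4.78 in RV (SE 1.41, adjusted p = 0.0540). At 4 h, 1 factor was called in LV (Irf8) and 2 in RV (Irf8 and Irf9), against 2.40% and 6.17% of genes called higher. With the replicate block 4 were called in RV, against 8.45%.

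Among 6 inhibitors of the pathway, LV had 3 and RV 5 called higher at 8 h, against 5.46% and 13.0% of all genes. Each ventricle had 3 called higher at 4 h, against 2.40% and 6.17%. Socs1, an inhibitor of the JAK kinases that is induced by interferon, rose by 4.02 in LV (SE 0.77, adjusted p = 0.0314) and 5.27 in RV (SE 0.80, adjusted p = 0.00457). It went from 1.76, 1.72, and 0.933 CPM at 0 h to 13.7, 16.3, and 42.0 CPM at 8 h in LV. All 3 LV libraries at 8 h thus lay above those at 0 h in Socs1, with the third again the highest.

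Genes that act with or after these GTPases were described from 4 further lists. Of 6 caspase and inflammasome genes, 2 were called higher in LV (Casp4 and Gsdmd) and 3 in RV (Casp4, Casp1, and Gsdmd) at 8 h. All genes called higher were 5.46% in LV and 13.0% in RV. At 4 h, 1 was called in each (Casp4), against 2.40% and 6.17% of genes. With the replicate block the RV counts were 5 at 8 h and 4 at 4 h, the latter against 8.45% of genes. The share of all genes called with the block in RV at 8 h is not given. Casp4, which encodes caspase-11, rose by 2.85 in LV (SE 0.54, adjusted p = 0.0302) and 4.07 in RV (SE 0.51, adjusted p = 0.00216). Of 11 genes of autophagy conjugation, which help to place IRGs and GBPs on membranes, 0 were called at 8 h in either ventricle, with median log2 fold changes of 0.01 in LV and -0.04 in RV. At 4 h, 2 of them (Gabarapl1 and Sqstm1) were called higher in RV and 0 in LV, against 6.17% and 2.40% of genes. Of 5 genes of protein prenylation, 0 were called in any of the 4 comparisons with 0 h. Both galectin genes, Lgals3 and Lgals8, were not called in the unpaired fits. Both were called higher in RV at 8 h with the replicate block, where the share of all genes is not given.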

How the data were processed

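RNA-seq of 18 libraries was used, 3 for each ventricle and storage time, grouped by the labels. The authors deposited, per transcript, estimated counts (expected_counts) from Kallisto on GRCm38 transcripts, not normalized between libraries, and TPM scaled within each library. Lengths deposited by the authors entered only the length offsets. Of 111462 transcripts, 110203 were matched to GENCODE M21, summed to 34989 genes and rounded to whole counts, and those not matched held at most 0.383% of counts.

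Genes were filtered with filterByExpr, TMM factors were applied, and edgeR 4.0.16 (R 4.3.3) gave quasi-likelihood tests. A call needed a Benjamini-Hochberg adjusted p under 0.1 over all genes tested and a fold change over 1.5. Storage times were compared within the 9 libraries of a ventricle, and LV with RV in all 18. CPM were computed on TMM-adjusted sizes, and log2 CPM with a prior count of 2. The depth of 22552581 to 46236771 counts limits only genes with few counts, and estimated counts are not independent molecules. The labels name no separate animals, so the p-values measure the spread between these libraries. The tests were checked on simulated data. Alternatives were DESeq2 1.42.0, RLE size factors, length offsets, no filter, other thresholds, other sets of libraries, no mitochondrial genes, the replicate block, summed paralogs, and libraries left out. TPM were used only for levels between genes.

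For pairing, deviations from group means were correlated across genes. Same-numbered LV and RV libraries had r between 0.325 and 0.697, and the RV storage times between 0.111 and 0.487, so every pair was over 0.1. The numbers were taken to pair LV with RV of the same storage time. Between storage times a number cannot name a heart, since each heart had a single storage time. There the block marks at most something shared by different hearts, which the labels do not name. Same-numbered LV libraries at 4 h and 8 h had r between 0.358 and 0.568. LV at 0 h with stored LV did not meet this rule. The pairing thus comes from the data, since the study collected both ventricles of a heart without saying that a number names one.

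The members, gene lists, comparisons, and alternatives were chosen with earlier results of these data known. The named genes were all members, listed family and pathway genes with those called in a list at 8 h, the 10 genes most correlated with the members, and the leading transcript of each member. The values of 1 listed gene are not reported here. Python 3.11.15, pandas 2.3.3, numpy 2.4.6, and matplotlib were used for tables and plots.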

Additional observations from a re-analysis of the deposited data

Results flagged for a closer look

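The change from 0 h to 8 h differed between LV and RV for 5 members in a direct test with same-numbered ventricles as pairs. This is what brought them here, and 4.72% of all genes were called lower in the same fit. The difference in log2 change, LV minus RV, was -0.60 for Gbp3, -0.92 for Gbp2, -0.81 for Irgm1, -0.63 for Irgm2, and -1.31 for Gbp6. For Gbp6 a 0 h difference of 0.88 makes up the greater part of it. In the fit without pairs, no member was called for the same difference, and 0.00% of genes were.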

How the results depend on the processing

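In the comparisons with 0 h, the direction of the members was the same under all alternatives run, and their calls were not. In LV at 4 h, DESeq2 called 4 members of 8 with a p (4.55% of genes were called higher), the fit with no filter 1 (1.77%), and the replicate block 2 (3.86%) in place of 0 (2.40%). In LV at 8 h, 0 were called at an adjusted p under 0.05 in place of 8, and the block gave 10 (8.10% of genes). In RV at 4 h, DESeq2 (8.12% of genes) and the fit with no filter (4.31%) called 7 and the replicate block (8.45%) 8 in place of 4 (6.17%), and 0 were called at an adjusted p under 0.05. For LV at 0 h against stored LV, same-numbered libraries had r between -0.02 and 0.26, so that these samples share only a number. The block within RV also joins different hearts, since each heart had a single storage time. Leaving out 1 library at a time gave between 0 and 6 members in LV at 4 h, 0 and 10 in LV at 8 h, 0 and 8 in RV at 4 h, and 4 and 10 in RV at 8 h. Among the lowest of these, 0 were called in LV at 8 h without any single 0 h library or without LV library 3 at 8 h, 0 in RV at 4 h without any single 0 h library or without RV library 3 at 4 h, and 4 and 5 in RV at 8 h without RV 0 h libraries 2 and 3. Leaving out LV library 1 at 4 h left 4 in LV at 8 h, while leaving out the 8 h libraries numbered 3 gave 6 in LV and 8 in RV at 4 h. The medians then ran from 1.15 to 3.02, 1.92 to 3.76, 1.30 to 3.19, and 2.94 to 4.38. The share of all genes called is not given for the fits with 1 library left out or for the stricter threshold. Their counts thus show how the calls moved and cannot tell the members from all genes.

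Without the stored libraries numbered 3, the members called were 7 in LV and 7 in RV at 4 h, against 4.50% and 8.10% of genes. The medians were 1.15, 1.92, 1.30, and 2.92 in the order above. With the replicate block as well, they were 7 and 8 at 4 h, with medians of 1.17, 1.97, 1.33, and 2.93. Without every library numbered 3 they were 4 and 7 at 4 h, with medians of 1.15, 1.94, 1.32, and 2.95. For this fit and the block fit before it, the share of all genes called at 4 h is not given. Their counts there cannot tell the members from all genes. For 8 h against 4 h, the block without the stored libraries numbered 3 gave 5 members in LV and 10 in RV, against 0.545% and 1.08% of genes. The medians with 1 library left out ran from -0.55 to 2.58 in LV and -0.14 to 3.13 in RV.

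For LV against RV, the replicate block called 1 member higher at 0 h (0.835% of genes). It called 5 lower at 8 h (6.53%) and 5 lower for the change to 8 h (4.72%). Without the stored libraries numbered 3 it called 1 (share of genes not given), 4 (7.35%), and 6 (5.62%). The block changed no other call of the pairs of ventricles. With 1 library left out of the fits without pairs, the medians ran from -0.06 to 0.24 at 0 h, -1.79 to 1.59 at 4 h, and -1.90 to 0.78 at 8 h, and from -1.91 to 1.56 and -1.85 to 0.72 for the changes to 4 h and 8 h. Without RV library 3 at 8 h, which leaves its LV partner in, the unpaired difference at 8 h turned to 0.78 for Gbp2, 0.31 for Irgm1, 0.62 for Iigp1, 0.28 for Irgm2, and 0.57 for Igtp, and without LV library 3 at 8 h it was -2.46, -1.63, -1.84, -1.58, and -2.09 for these genes. The difference in change turned to 0.86 for Gbp3, 0.69 for Gbp2, 0.16 for Irgm1, 0.28 for Irgm2, and 0.29 for Gbp6, and without LV library 3 at 8 h it was -2.07, -2.55, -1.78, -1.58, and -3.01. RLE size factors, length offsets, the removal of mitochondrial genes, other sets of libraries, and the lack of a fold limit left each count of members within 1.5 times its value. The causes were not tested. Depth does not limit the members, but Ifng and the lymphocyte markers are at the level of single counts, and the lowest Ifnb1 values are only a few counts.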
